A study of Mus musculus with 36 samples.

Results

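The genes described are 10 secreted factors of the bone morphogenetic protein (BMP) and activin branches of TGFβ signalling, chosen by name and out of 54115 genes summed from the transcript estimates. The choice was made with earlier results of these data known. They comprise the ligand genes Bmp2, Bmp4, Bmp7 and Gdf10, the activin subunit genes Inhba and Inhbb, and the antagonist genes Grem1, Nog, Chrd and Fst. The study asked what loss of the macroH2A histone variants (H2afy and H2afy2, deleted constitutively in dKO mice) does in melanoma and in the fibroblasts around it. Values are given for 12 bulk melanomas (6 WT, 6 dKO), 8 libraries of cancer-associated fibroblasts (CAFs; 4 WT, 4 dKO), 8 libraries of immortalized dermal fibroblasts (iDFs) and, for levels alone, 8 libraries of sorted CD8+ T cells (4 WT, 4 dKO). WT and dKO tumour mice alike shared the same tumour alleles, among them Braf CA/CA and Tyr-CreERT2, an inducible recombinase driven from a melanocyte promoter, so that WT refers only to macroH2A. Their genetic background was mixed (129S for the most part, plus B6 and FVB). They received topical 4-hydroxytamoxifen, and tumours were taken 50 days after induction. The mice that gave CAFs were 10 weeks old at induction, 2 female and 2 male of each genotype. CAFs were sorted on CD140a, the product of Pdgfra. The iDFs came from skin of male WT and dKO mice without tumours and were starved of serum or given serum for 30 min, with 2 libraries per genotype and time. The sources name no more than the WT and the dKO cells, so in iDFs the genotype and the cell line cannot be told apart, and p-values there measure the spread between cultures of these cells, which may be technical.

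BMPs and activins are dimeric ligands that assemble type I and type II serine/threonine kinase receptors. BMP receptors phosphorylate Smad1, Smad5 and Smad9, and activin receptors phosphorylate Smad2 and Smad3. Inhba and Inhbb encode the βA and βB subunits of the activins. Gremlin (Grem1), noggin (Nog) and chordin (Chrd) bind BMPs outside the cell and keep them from their receptors, and follistatin (Fst) does the same mainly to activins. Gdf10 (BMP3B) is a ligand related to BMP3. In skin these factors are known for their part in hair follicle cycling and in the signalling between dermis and epidermis.

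Libraries held 17526681 to 85432438 estimated counts in genes. Pdgfra, the gene of the sort marker, stood at 106 to 191 TPM, a level per library scaled by transcript length, in the CAF libraries and at 12.6 to 48.9 TPM in bulk tumours. All 8 markers of a fibroblast list averaged at least 1 TPM in CAFs and in iDFs. That threshold does not set fibroblasts apart, since all 8 also reached it in bulk tumours and in the sorted CD8+ T cells. The list summed to at least 46740 TPM in every CAF library and to at most 1391 TPM in the CD8+ T cell libraries. The summed CD8+ T cell list did not exceed 1.61 TPM in any CAF library. H2afy2 averaged 18.3 TPM in WT and 10.3 TPM in dKO CAFs, and H2afy averaged 84.4 and 82.2 TPM. Which part of either gene the deletion removed was not stated, so reads on these genes check no label.

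On GRCm38 the genes with calls lie on chromosome 2 (Grem1 at 113746164 to 113758646 on the minus strand, Bmp2 at 133552159 to 133562885 on the plus strand), chromosome 1 (Inhbb at 119415465 to 119422248, minus), chromosome 11 (Nog at 89300638 to 89302332, minus), chromosome 14 (Bmp4 at 46383520 to 46390669, minus) and chromosome 16 (Chrd at 20733127 to 20742384, plus). All are protein-coding, and reads were assigned to their annotated transcripts. Of the 10 genes, 6 had an upstream sequence in the RefSeq table for GRCm38.p6. Bmp2, Bmp7, Nog and Fst had none. The 250 bases before the start of Bmp4, Inhbb and Grem1 are shown because these are the genes called higher in dKO iDFs, of which Grem1 and Inhbb were called lower in dKO CAFs. They are written 5′ to 3′ on the strand of the gene, with capitals marking matches on either strand to a CCAAT box, a GC box, a TATA box, an AP-1 motif or an E-box:
Bmp4 (chr14:46390670-46390919, minus strand): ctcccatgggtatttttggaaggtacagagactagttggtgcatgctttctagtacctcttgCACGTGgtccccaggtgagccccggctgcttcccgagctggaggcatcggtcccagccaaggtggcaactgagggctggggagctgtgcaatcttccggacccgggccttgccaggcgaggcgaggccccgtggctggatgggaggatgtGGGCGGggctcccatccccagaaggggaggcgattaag
Inhbb (chr1:119422249-119422498, minus strand): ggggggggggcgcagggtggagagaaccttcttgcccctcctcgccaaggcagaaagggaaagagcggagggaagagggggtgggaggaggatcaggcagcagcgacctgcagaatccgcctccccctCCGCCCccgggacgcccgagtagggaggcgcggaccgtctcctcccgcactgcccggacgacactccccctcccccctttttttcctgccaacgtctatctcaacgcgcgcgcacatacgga
Grem1 (chr2:113758649-113758898, minus strand): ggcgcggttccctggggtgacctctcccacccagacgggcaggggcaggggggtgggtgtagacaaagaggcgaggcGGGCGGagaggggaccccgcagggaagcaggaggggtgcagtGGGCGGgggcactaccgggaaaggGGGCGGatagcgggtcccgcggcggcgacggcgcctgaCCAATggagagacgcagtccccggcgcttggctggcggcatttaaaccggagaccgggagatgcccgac

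All 3 windows held a GC box (GGGCGG), counted like the other motifs on both strands, as did 32.7% of the 32851 windows in the table. Grem1 held 3 of them and Bmp4 and Inhbb 1 each. Grem1 also held a CCAAT box (letters CCAAT) with its first base 69 bases before the start, a motif found in 33.9% of windows. Bmp4 held the E-box CACGTG, with its first base 188 bases before the start and a share of 6.02% of windows. None of the 3 held TATAAA (12.4% of windows) or the AP-1 letters TGACTCA (4.46%). The windows held 11, 21 and 24 CpG in Bmp4, Inhbb and Grem1, against a median of 6 over the table. Of the other members with a window, Chrd held 28 CpG and 4 GC boxes, Gdf10 35 CpG and 4 GC boxes, and Inhba 3 CpG and 0 GC boxes. Neither feature was therefore particular to the 3 genes shown. A match is a description of the letters and not evidence of a bound factor.

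The level of a gene relative to other genes was read from TPM, which is scaled by transcript length. In WT CAFs Inhba averaged 71.5 ± 35.6 TPM (SD, n = 4), Gdf10 59.9 ± 17.0, Bmp2 47.2 ± 31.1, Fst 24.2 ± 9.97, Inhbb 19.1 ± 3.93, Bmp7 15.9 ± 4.10, Bmp4 12.2 ± 7.30, Grem1 8.42 ± 2.32, Chrd 5.87 ± 0.44 and Nog 4.47 ± 1.59. Neighbours in that order overlapped in their ranges throughout, so the order of adjacent genes was within the spread of the libraries. All 10 genes were thus detected in sorted CAFs. Starved WT iDFs presented a narrower set. Inhba averaged 43.4 ± 5.54 TPM (SD, n = 2) there, and the next gene, Fst, only 1.61 ± 0.25. Grem1 (1.56), Chrd (1.35) and Inhbb (1.05) were close to Fst, while Bmp2 and Bmp4 were below 1 TPM at 0.40 and 0.37. Bmp7 and Gdf10 had 0 counts in all 4 WT iDF libraries, and Nog had 1 to 4. A count of 0 allows up to 3 counts, and such limits cover counting error only.

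In WT bulk tumours Fst was highest on this scale at 34.9 ± 14.1 TPM (SD, n = 6), followed by Gdf10 at 15.5 ± 9.36, Bmp7 at 12.5 ± 3.01 and Bmp4 at 10.9 ± 3.05. Grem1 (1.19 ± 0.33) and Nog (1.14 ± 0.50) were lowest, and their ranges overlapped. TPM depends on which transcript the estimates were assigned to. In WT tumours 49.7% of Fst TPM lay on a retained-intron transcript of 673 bases. For Bmp4, a retained-intron transcript of 258 bases held 32.1% of the TPM in WT CAFs and 45.9% in dKO CAFs, but its SD exceeded its mean in both. Comparisons between groups below therefore use CPM, counts scaled to library size with TMM normalization, within 1 experiment.

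**Figure D1:**
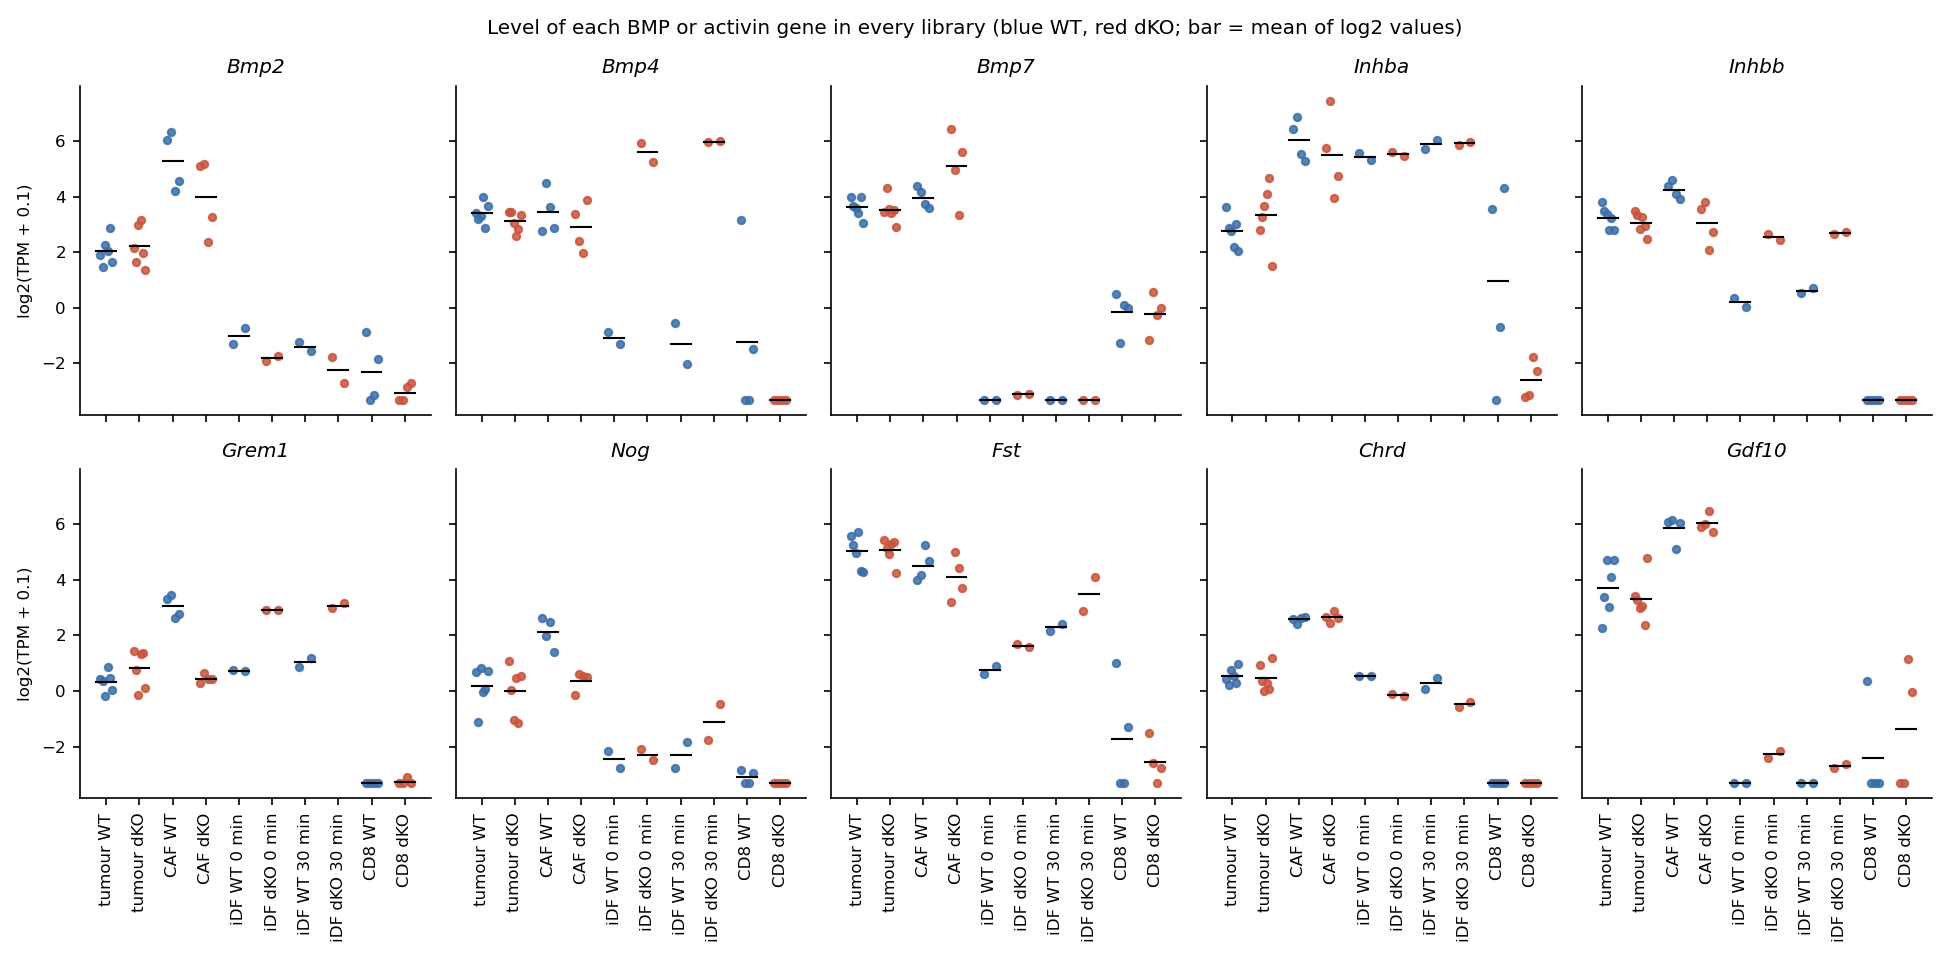
Level of each of the 10 genes as log2(TPM + 0.1) in every library, by group. Points are libraries, blue WT and red dKO, and bars the mean of the log2 values. Inhba is high in CAFs and iDFs alike, Bmp7 and Gdf10 sit at the bottom of the scale in iDFs, and Bmp4 in iDFs is high only in the dKO libraries, whose averages were 49.5 TPM at 0 min and 62.6 TPM at 30 min.

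The first comparison asked which of these genes differ between sorted dKO and WT CAFs. Grem1, Nog, Bmp2 and Inhbb were lower in dKO CAFs and none was higher, so that a pair of BMP antagonists, a BMP ligand and an activin subunit fell together. A call required both an absolute log2 fold change above 0.75 and, in edgeR's quasi-likelihood test with Benjamini-Hochberg adjustment over all tested genes, an adjusted p under 0.05. All 10 genes passed the low-count filter. The 4 lower calls among 10 stand against 4.03% of 15786 tested genes called lower, and the 0 higher calls against 1.45%. Since the 10 were picked with earlier results known, such shares, here and in the comparisons below, describe the set and test nothing. The median log2 fold change of the 10 was −0.59, and that of all tested genes 0.00.

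Grem1 showed the largest fall among the 10. Its 4 WT libraries held 23.9, 25.7, 14.9 and 15.3 CPM (19.9 ± 5.65, SD), and its 4 dKO libraries 2.72, 3.55, 2.98 and 2.90 CPM (3.04 ± 0.36). The groups did not overlap, and the dKO libraries lay within a narrow band. The fall was 6.36-fold (log2 fold change −2.67 ± 0.15 SE, edgeR adjusted p = 8.6e-05). It was seen in both sexes, with a log2 ratio of mean CPM of −2.36 in females and −2.98 in males. Nog was a low-level gene, with 5.40, 3.33, 4.92 and 2.14 CPM in WT and 0.72, 1.29, 1.18 and 1.15 CPM in dKO libraries. Those groups did not overlap either, although the dKO values rest on 17 to 36 counts per library. Its fall was 3.59-fold (log2 fold change −1.85 ± 0.34 SE, edgeR adjusted p = 0.0157).

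Bmp2 and Inhbb fell by smaller amounts, and their calls depended on the sex term. Bmp2 measured 135 and 162 CPM in WT males, 37.3 and 45.3 in WT females, 70.5 and 74.3 in dKO males and 10.1 and 19.2 in dKO females. Within each sex every dKO library was below every WT library, but over both sexes the genotypes overlapped. The fitted fall was 2.39-fold (log2 fold change −1.26 ± 0.20 SE, edgeR adjusted p = 0.0112). Inhbb measured 51.1 and 58.0 CPM in WT males, 41.9 and 35.2 in WT females, 28.8 and 35.0 in dKO males and 10.2 and 15.6 in dKO females, a fall of 2.24-fold over genotypes that came within 35.0 and 35.2 CPM of each other (log2 fold change −1.17 ± 0.21 SE, edgeR adjusted p = 0.0157). Without a term for sex the adjusted p was 0.42 for Bmp2 and 0.153 for Inhbb. Without the low-count filter it was 0.0525 and 0.0645, with nearly unchanged fold changes of −1.25 and −1.16. DESeq2 called both.

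The other 6 genes did not pass. Bmp4 measured 5.98 to 11.5 CPM in WT and 3.59 to 4.84 CPM in dKO CAFs, which did not overlap (log2 fold change −0.75 ± 0.24 SE, edgeR adjusted p = 0.091). DESeq2 gave it an adjusted p of 0.031. Bmp7 was spread widely in dKO CAFs, at 185, 66.6, 21.1 and 99.1 CPM against 23.6 to 43.9 in WT (log2 fold change 1.44 ± 0.49 SE, edgeR adjusted p = 0.117). Without dKO replicate 3, the library of 21.1 CPM, Bmp7 passed at 1.76 (edgeR adjusted p = 0.0253). Inhba was equally uneven, at 135, 447, 38.9 and 65.2 CPM in dKO against 105 to 303 in WT CAFs (log2 fold change −0.44 ± 0.44 SE, edgeR adjusted p = 0.566). Leaving out dKO replicate 2, the library of 447 CPM, moved it to −1.02 with an edgeR adjusted p of 0.037. Fst (−0.35, 95% interval −1.38 to 0.68) and Gdf10 (0.20, −0.38 to 0.77) had intervals that include changes past the fold threshold. Chrd was measured most tightly, at 9.64 to 10.6 CPM in WT and 9.67 to 11.02 CPM in dKO CAFs, with a log2 fold change of 0.01 and a 95% interval of −0.16 to 0.19.

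**Figure D2:**
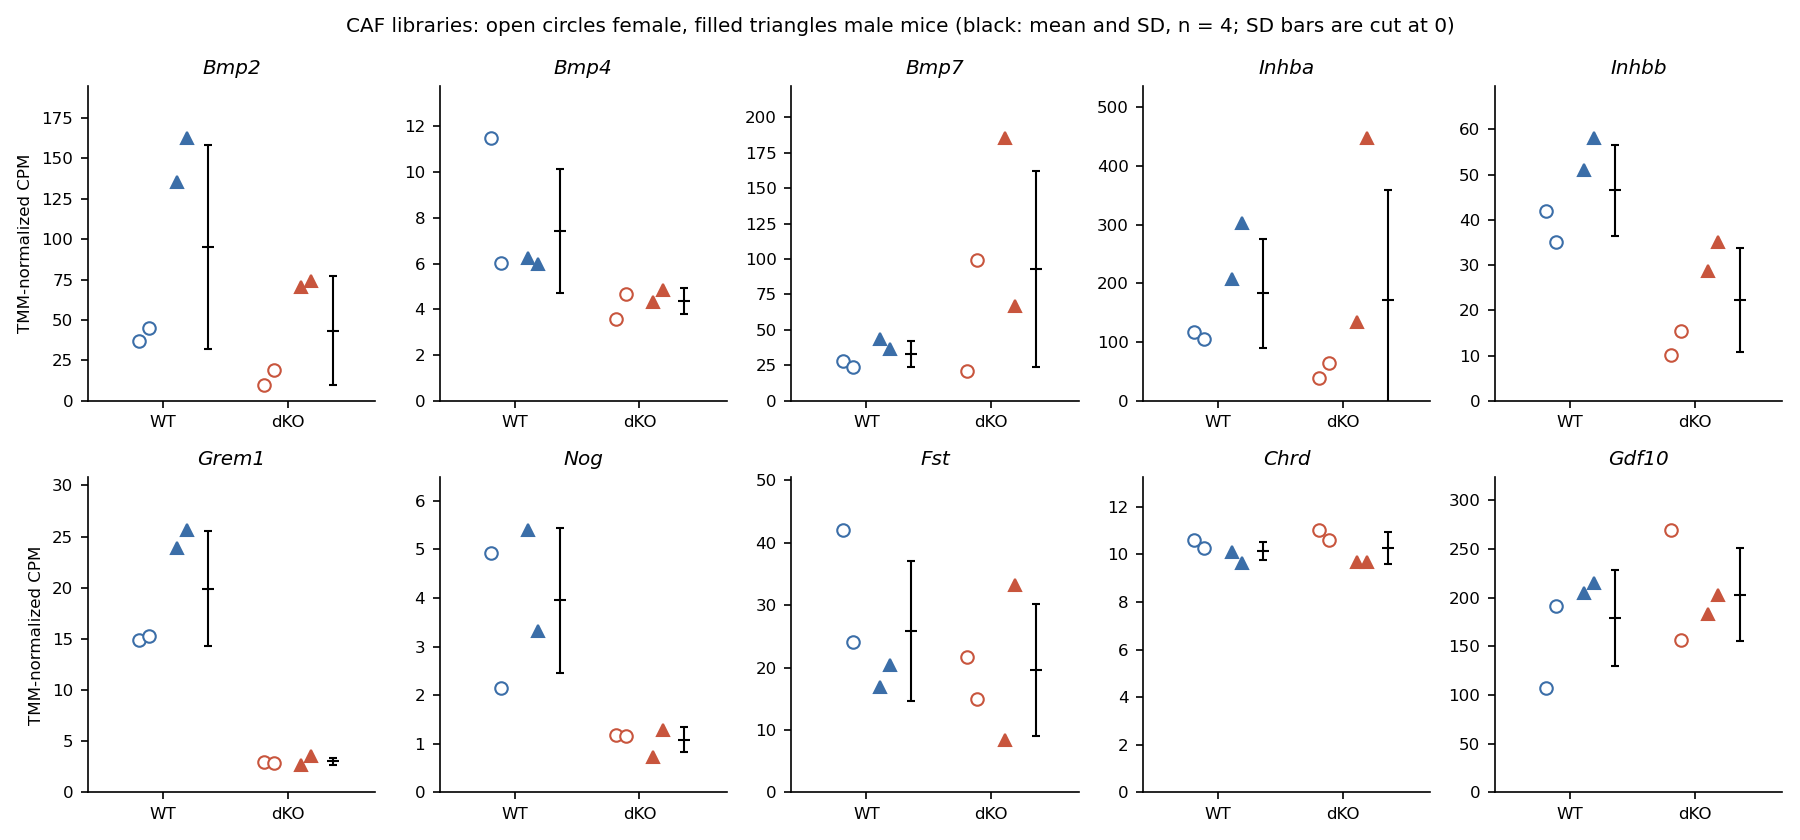
TMM-normalized CPM of each gene in the 8 CAF libraries by genotype. Females are drawn as open circles and males as filled triangles, and black marks give the mean and SD of 4 libraries. Grem1 and Nog separate by genotype, and in the Bmp2 panel both males of each genotype lie above both females.

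Some lists of markers of other cells moved with genotype in these sorted libraries. The summed melanocyte list (6 genes) was 332 to 485 TPM in WT and 79.4 to 310 TPM in dKO CAFs, and the hair follicle dermal papilla list (4 genes) 50.9 to 83.6 TPM in WT and 23.1 to 42.9 TPM in dKO. Neither list overlapped between genotypes. The keratinocyte list (4 genes) was 41.0 to 78.0 TPM in WT and 13.7 to 41.0 TPM in dKO, and the neural crest and Schwann list (5 genes) 160 to 227 TPM in WT and 125 to 174 TPM in dKO. The fibroblast list summed to 46740 to 57810 TPM in WT and 54380 to 70750 TPM in dKO CAFs. No gene of these lists was at 0 in all libraries of a genotype. Some of their genes were close between genotypes. Mitf averaged 12.9 TPM in WT and 13.5 TPM in dKO CAFs, Ngfr 61.9 and 61.3, and Krt10 11.4 and 12.7. The mural and smooth muscle list overlapped between genotypes, at 225 to 427 TPM in WT and 244 to 497 TPM in dKO. So did the endothelial list (79.1 to 176 and 67.8 to 141 TPM) and the myeloid, neutrophil and skeletal muscle lists. The part of these cells in the falls of Grem1, Nog, Bmp2 and Inhbb was not tested.

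Bmp2 differed by sex as well as by genotype in CAFs. This comparison was chosen after the values had been seen. With genotype in the model, Bmp2 was 4.19-fold higher in male than in female CAFs (mean 111 and 28.0 CPM, n = 4 each, log2 fold change 2.07 ± 0.21 SE, edgeR adjusted p = 0.0102). It was the only one of the 10 genes called, where 1.67% of 15786 genes were called higher and 0.241% lower in males. Inhba was 3.58-fold higher in males (log2 fold change 1.84 ± 0.45 SE, edgeR adjusted p = 0.0744) and Inhbb 1.86-fold (0.89 ± 0.21 SE, edgeR adjusted p = 0.0672). Neither passed in edgeR, and DESeq2 gave them adjusted p-values of 0.00414 and 5.8e-04. The edgeR interaction of genotype and sex was not called for any of the 10, nor for any of the 15786 genes, of which 674 had an unadjusted p under 0.05. Among the 10, Grem1 (−0.62 ± 0.21 SE, edgeR unadjusted p = 0.0224) and Inhbb (0.81 ± 0.30 SE, 0.0303) were under it. For Bmp2 the interaction was 0.45 ± 0.39 SE on the log2 scale (edgeR unadjusted p = 0.283). Marker lists of other cells also differed by sex. The mural and smooth muscle list summed to 362 to 497 TPM in male and 225 to 352 TPM in female CAFs. The endothelial list summed to 67.8 to 85.8 TPM in males and 88.6 to 176 TPM in females. The other lists overlapped between the sexes. The part of these cells in the differences by sex was not tested.

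The second comparison set dKO against WT iDFs, that is, fibroblasts in culture away from a tumour. Here Bmp4, Inhbb and Grem1 were higher in dKO cells and Chrd was lower, both before serum and at 30 min. Bmp7, Nog and Gdf10 did not pass the low-count filter, so 7 of the 10 genes were tested. At 0 min the 3 higher calls among 7 stand against 3.93% of 15047 genes called higher, and the single lower call against 5.11%. At 30 min these shares were 3.88% and 5.08%, with the same 4 genes called. The median log2 fold change of the 7 was 0.51 at 0 min and 1.30 at 30 min, and that of all tested genes 0.00 and −0.01.

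Bmp4 was near the floor in WT iDFs, with 10 and 8 counts (0.37 and 0.34 CPM), and had 1265 and 994 counts (40.3 and 35.8 CPM) in dKO iDFs at 0 min. The fitted difference was 105-fold (log2 fold change 6.72 ± 0.24 SE, edgeR adjusted p = 6.9e-07). At 30 min the counts were 12 and 3 in WT and 815 and 661 in dKO, a log2 fold change of 6.52 ± 0.25 SE (edgeR adjusted p = 9.8e-07). That size rests on few WT counts, as it was 7.81 without WT replicate 1 and 5.86 without WT replicate 2. Every dKO library thus lay far above every WT library. Inhbb measured 2.91 and 2.28 CPM in WT and 15.9 and 13.8 CPM in dKO iDFs at 0 min, a 5.69-fold difference (log2 fold change 2.51 ± 0.15 SE, edgeR adjusted p = 5.9e-06). At 30 min it measured 3.46 and 3.99 against 17.2 and 18.5 CPM (2.26 ± 0.14 SE, edgeR adjusted p = 7.8e-06). Grem1 measured 3.81 and 3.72 CPM in WT and 19.0 and 18.7 CPM in dKO iDFs at 0 min, a 5.00-fold difference (2.32 ± 0.14 SE, edgeR adjusted p = 5.8e-06). Its values at 30 min were 4.36 and 5.63 against 20.7 and 24.3 CPM (2.17 ± 0.13 SE, edgeR adjusted p = 7.1e-06). These 3 calls held without any 1 of the libraries.

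Chrd was the only one of the 10 called lower in dKO iDFs, at 2.50 and 2.58 CPM in WT and 1.05 and 1.58 CPM in dKO at 0 min (log2 fold change −0.95 ± 0.26 SE, edgeR adjusted p = 0.0232). At 30 min it measured 1.88 and 2.53 against 1.14 and 1.10 CPM (−0.98 ± 0.28 SE, edgeR adjusted p = 0.0249). The call rests on 26 to 67 counts per library, and DESeq2 did not make it (adjusted p = 0.15 at either time). It was also lost without WT replicate 1, WT replicate 2 or dKO replicate 1 at 0 min, and without WT replicate 2, dKO replicate 1 or dKO replicate 2 at 30 min, with edgeR adjusted p-values of 0.0746 to 0.143. Inhba, the highest of the 10 by TPM in WT iDFs, measured 138 and 121 CPM in WT and 151 and 135 CPM in dKO iDFs at 0 min. Its log2 fold change of 0.15 had a 95% interval of −0.11 to 0.40. Bmp2 had 17 and 24 counts in WT and 11 and 12 in dKO (log2 fold change −1.06 ± 0.49 SE, edgeR adjusted p = 0.135). Fst did not pass at 0 min (0.51 ± 0.59 SE) or at 30 min (1.30 ± 0.48 SE, edgeR adjusted p = 0.101). At 30 min DESeq2 called it (adjusted p = 0.00211), and without dKO replicate 1 edgeR did (1.81, edgeR adjusted p = 0.00268). Gdf10 had 0 counts in every WT library and 9, 11, 4 and 5 counts in the dKO libraries. Without the low-count filter edgeR called it higher in dKO iDFs at 0 min (edgeR adjusted p = 0.0011) and at 30 min (edgeR adjusted p = 0.0199), and no fold is given against a group at 0. Gdf10 entered that fit only through its dKO counts, so the call adds no support beyond them. Nog had 1 to 4 counts in WT and 2 to 15 in dKO.

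**Figure D3:**
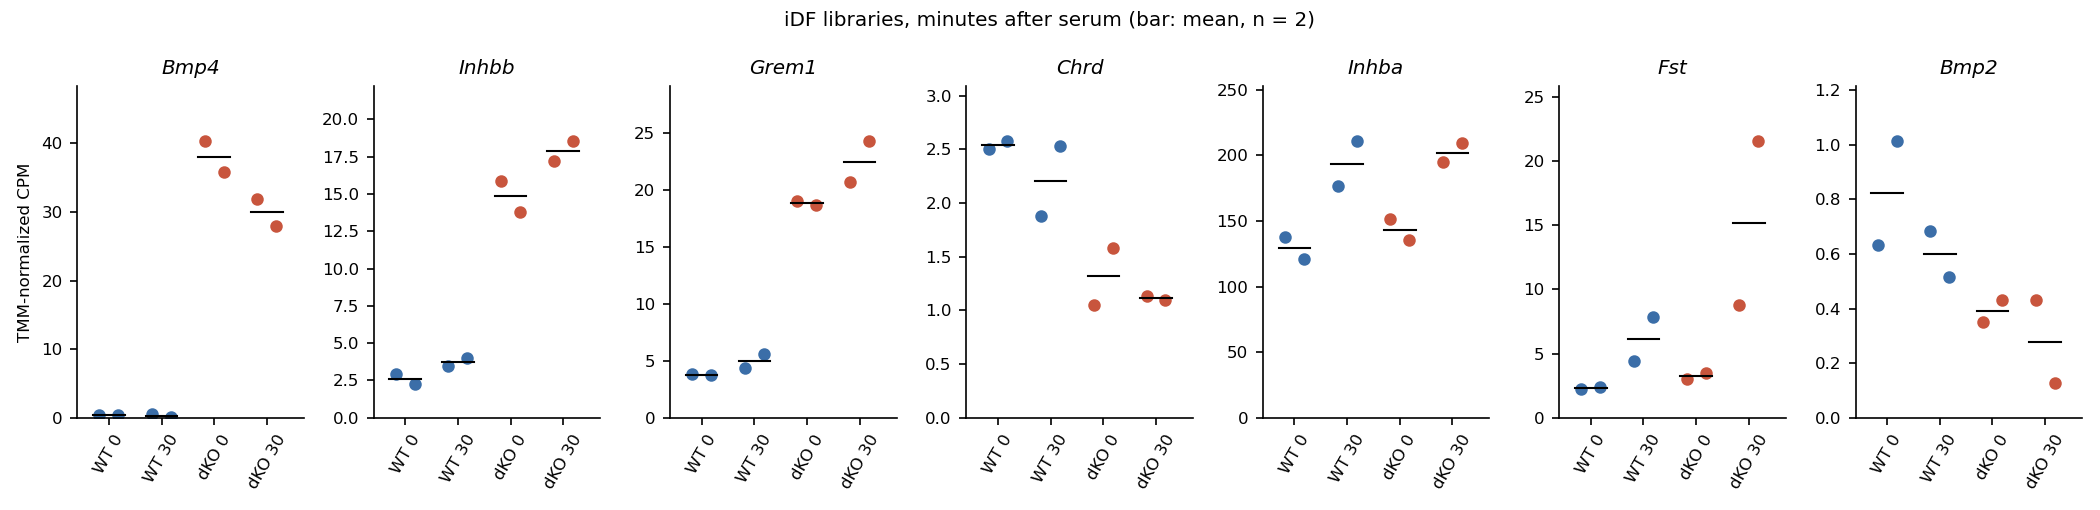
TMM-normalized CPM of the 7 tested genes in the 8 iDF libraries, by genotype (blue WT, red dKO) and minutes after serum. Points are libraries and bars the mean of 2. Both dKO groups of Bmp4, Inhbb and Grem1 lie above both WT groups, Chrd is lower in dKO, and Inhba and Fst are higher at 30 than at 0 min within each genotype.

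Serum for 30 min was asked about within each genotype. No member passed both thresholds in WT iDFs, where 1.95% of 15047 genes were called in either direction, nor in dKO iDFs, where 3.28% were. In each genotype 3 of the 7 tested genes had an unadjusted p under 0.05, as had 19.4% of all tested genes in WT and 23.8% in dKO iDFs. Inhba passed the p-value but not the fold threshold. It rose from 138 and 121 CPM to 177 and 211 CPM in WT iDFs (log2 fold change 0.58 ± 0.11 SE, edgeR adjusted p = 0.0287) and from 151 and 135 to 195 and 209 CPM in dKO iDFs (0.50 ± 0.10 SE, edgeR adjusted p = 0.0323). Fst had the greater fold and the greater spread. It measured 2.24 and 2.36 CPM before and 4.44 and 7.82 CPM after serum in WT iDFs (log2 fold change 1.41 ± 0.57 SE, edgeR adjusted p = 0.263), and 3.06 and 3.49 CPM before and 8.76 and 21.5 CPM after in dKO iDFs (2.21 ± 0.51 SE, edgeR adjusted p = 0.0594). All 4 stimulated libraries were above all 4 starved ones. DESeq2 called Fst in both genotypes (adjusted p = 0.00545 and 6.3e-08), and leaving out either stimulated dKO library brought the edgeR call in dKO iDFs.

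Bmp4 in dKO iDFs illustrates the difference between scales. Its CPM went from 40.3 and 35.8 to 31.9 and 28.0 with serum (log2 fold change −0.35 ± 0.13 SE, edgeR adjusted p = 0.143), whereas its TPM averaged 49.5 before and 62.6 after. Over the same interval the share of its TPM on the 258-base transcript went from 18.7% to 52.9%. The interaction of genotype and serum was called for 0 of the 7 genes and for 0.0133% of all genes by edgeR, and 0 of the 7 had an unadjusted p under 0.05. DESeq2 called none of the 7, and the full table held 364 genes with an unadjusted p under 0.05. The interaction for Fst was 0.80 with a 95% interval of −1.14 to 2.73, so that neither a smaller nor a larger serum response of Fst in dKO iDFs was distinguishable.

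The genotype effects in CAFs and in starved iDFs were then compared in 1 fit of 12 libraries, since a gene called in only 1 cell type is not thereby shown to differ between them. Grem1, Bmp4, Inhbb and Chrd differed, 4 of 10 genes against 7.13% of 17501 genes called in either direction. For Grem1 the effect in CAFs minus that in iDFs was −4.99 ± 0.23 SE on the log2 scale (edgeR adjusted p = 1.1e-06). It was lower in dKO CAFs and higher in dKO iDFs. Inhbb also went opposite ways, with a difference of −3.67 ± 0.37 SE (edgeR adjusted p = 3.4e-04). For Bmp4 the difference was −7.46 ± 0.45 SE (edgeR adjusted p = 1.2e-05), most of it from the iDF side. For Chrd it was 0.97 ± 0.20 SE (edgeR adjusted p = 0.0143), with a flat value in CAFs. The Chrd difference was lost with an offset for transcript length (0.77, edgeR adjusted p = 0.0656) and without either starved WT library or starved dKO replicate 1 (edgeR adjusted p = 0.064 to 0.0863).

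Bmp2 had like estimates in CAFs (−1.26) and iDFs (−1.06), and the difference of −0.19 had a 95% interval of −1.73 to 1.35. Nog was called in CAFs only, but its difference did not pass (−2.18 ± 1.01 SE, edgeR adjusted p = 0.214), and it had 1 to 4 counts in starved iDF libraries. Inhba (−0.59 ± 0.67 SE) and Fst (−0.85 ± 0.78 SE) did not pass. Both did without CAF dKO replicate 2, at −1.16 and −1.47 (edgeR adjusted p = 0.044 and 0.0381). Bmp7 and Gdf10 had 0 counts in starved WT iDFs, so no fold is given for them, and DESeq2 called the difference of Gdf10 (adjusted p = 0.00576). The CAFs were uncultured cells from tumours of both sexes and the iDFs cultured male cells from skin, so cell source and culture cannot be told apart in this contrast. On the iDF side genotype and cell line cannot be told apart either, so these differences hold for the WT and dKO cells used. The p-values pool the spread between mice with that between cultures. The part of sex in it was not tested, as no fit was made on male CAFs alone. Between male CAFs alone (2 per genotype) the log2 ratio of mean CPM, dKO over WT, was −2.98 for Grem1, −0.77 for Inhbb and −0.41 for Bmp4, where the male iDFs at 0 min gave 2.32, 2.51 and 6.72. The melanocyte list, which differed between CAF genotypes, summed to at most 10.45 TPM in any iDF library, and the dermal papilla list to at most 5.62 TPM.

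**Figure D4:**
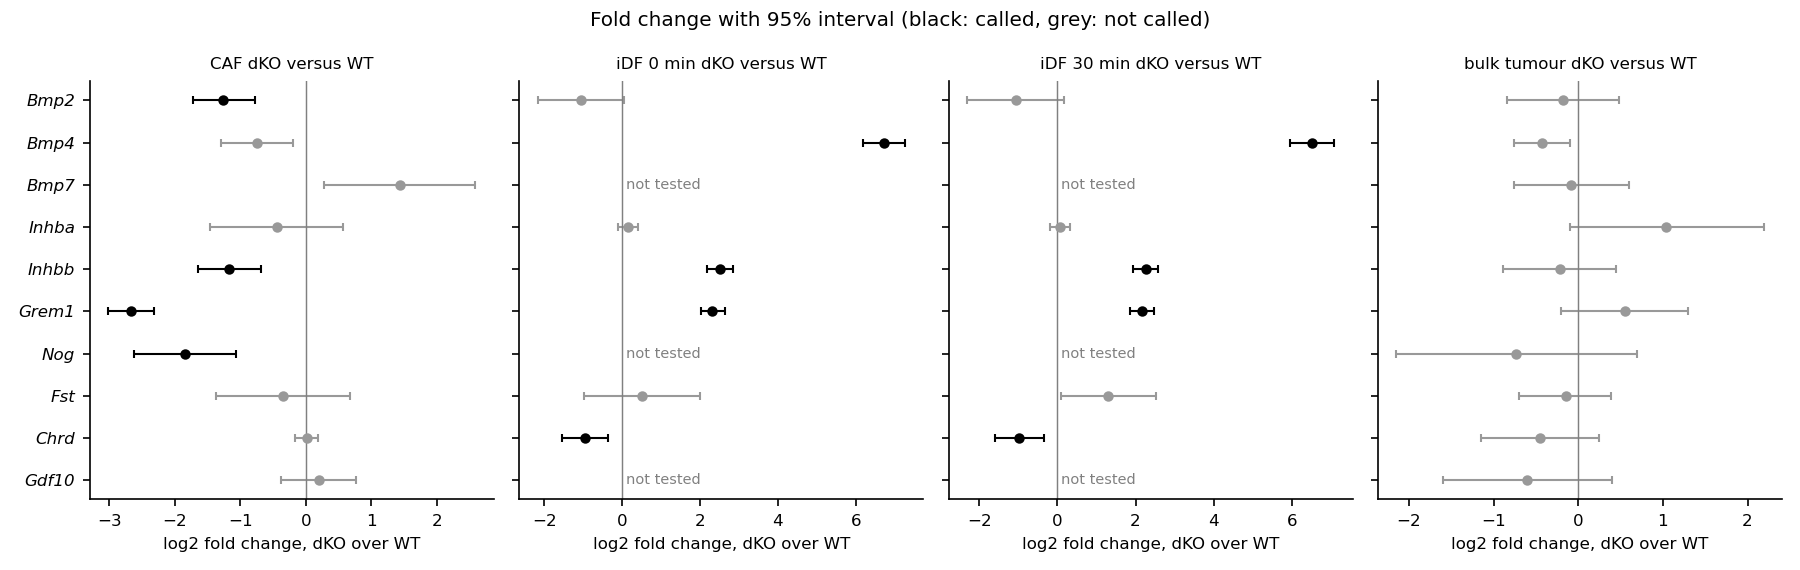
Log2 fold change of dKO over WT with its 95% interval for each gene in CAFs, iDFs at 0 and 30 min and bulk tumours, black where called and grey where not. The x axes differ between panels. Grem1 and Inhbb lie left of 0 in CAFs and right of 0 in iDFs, and every bulk tumour value is grey.

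In whole tumours none of the 10 genes was called. Of 18097 genes 0.0166% were called higher and 0.0276% lower in dKO tumours by edgeR, so calls were rare for all genes, and DESeq2 called 78 higher and 113 lower but none of the 10. By edgeR 1360 genes had an unadjusted p under 0.05. In bulk tissue fewer cells of a type and less RNA per cell cannot be told apart. Bmp4 was the only member with an unadjusted p under 0.05. It ranged from 8.43 to 20.2 CPM (median 9.94) in WT and from 8.38 to 12.8 CPM (median 10.5) in dKO tumours (log2 fold change −0.43 ± 0.15 SE, edgeR adjusted p = 0.554). Within the 3 batches its log2 ratio was −0.42, −0.03 and 0.02.

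Grem1, called lower in dKO CAFs, had an estimate above 0 in dKO tumours that did not pass. It ranged from 2.79 to 5.89 CPM (median 4.10) in WT and from 2.64 to 8.45 CPM (median 6.55) in dKO tumours (log2 fold change 0.55 ± 0.34 SE, 95% interval −0.20 to 1.30, edgeR adjusted p = 0.745). The log2 ratio was 0.65, 0.34 and 0.64 in the 3 batches. Inhba had the greatest fold change, 1.04 ± 0.51 SE (edgeR adjusted p = 0.675), from 19.0 to 68.6 CPM (median 35.8) in WT and 14.5 to 130 CPM (median 56.8) in dKO. Its batch ratios were 0.88, −0.18 and 1.36, and the highest library was the single dKO female. For Nog the interval of −2.15 to 0.69 includes the fall seen in CAFs, and for Inhbb (−0.89 to 0.45) and Bmp2 (−0.84 to 0.48) it includes falls past the fold threshold. The remaining intervals were −0.76 to 0.60 for Bmp7, −0.70 to 0.39 for Fst, −1.15 to 0.25 for Chrd and −1.60 to 0.40 for Gdf10. The median over the 10 genes was −0.20, and over all genes 0.02. Only 1 of 6 dKO tumours was female against 4 of 6 WT tumours, so sex and genotype were only partly separable in bulk tumours. The ratios within batches, here and above, carry no term for sex. In batch 3 both WT tumours were female and both dKO tumours male, so its ratios cannot separate genotype from sex.

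The wider pathway was read from a list of 67 further ligands, antagonists, receptors, Smads, proteases and target genes. In CAFs 51 were tested, 2 called higher and 2 lower, where 1.45% and 4.03% of all tested genes were, so the list as a whole was close to that background. Bmp6, another BMP ligand, fell 3.71-fold (12.6 ± 4.35 TPM in WT and 3.60 ± 0.65 in dKO, log2 fold change −1.89 ± 0.28 SE, edgeR adjusted p = 0.00803). Tll1, a tolloid-type protease that cleaves chordin, fell 2.75-fold (8.59 ± 2.08 and 2.82 ± 0.84 TPM, log2 fold change −1.46 ± 0.23 SE, edgeR adjusted p = 0.00952). The ligand Gdf6 rose 3.12-fold (1.03 ± 0.44 and 3.04 ± 1.08 TPM, log2 fold change 1.64 ± 0.27 SE, edgeR adjusted p = 0.00992), and the decoy receptor Bambi rose 2.43-fold (5.94 ± 0.96 and 14.5 ± 6.86 TPM, log2 fold change 1.28 ± 0.30 SE, edgeR adjusted p = 0.0414). None of the 8 Smads and none of the 10 tested target genes was called. The median log2 fold change of the 51 was −0.06.

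In iDFs at 0 min 47 of the 67 were tested, 3 were higher and 12 lower in dKO cells, where 3.93% and 5.11% of all tested genes were, with a median of 0.08. At 30 min the counts were 3 and 11, beside 3.88% and 5.08% of all genes. Of these, 2 higher and 10 lower genes were called at both times, among them the activin receptor gene Acvr2b, which was 1.24 ± 0.24 SE higher at 30 min (edgeR adjusted p = 0.00446, DESeq2 0.0622). Those with the smallest p at 0 min included the antagonist Chrdl1 (log2 fold change −1.57 ± 0.16 SE), lower in dKO iDFs where Grem1 was higher. Among ligands Bmp3 was lower (−3.33 ± 0.22 SE) and Gdf7 higher (2.15 ± 0.21 SE). Among receptors and co-receptors Eng (−1.29), Bmpr1b (−1.18), Acvrl1 (−2.19) and Rgmb (−0.78) were lower. Among targets Id4 (−0.99) and Hey1 (−2.84) were lower. The edgeR adjusted p-values of the 9 genes named from Chrdl1 to Hey1 were 4.6e-06 to 0.00263. The targets did not fall as a list. Of 9 tested, 1 was called higher and 2 lower at 0 min, with a median log2 fold change of 0.42. At 30 min 1 was called higher and 1 lower, with a median of 0.09. Gdf6, higher in dKO CAFs, was lower in dKO iDFs (−2.94 ± 0.83 SE, edgeR adjusted p = 0.0268), and that difference between CAFs and iDFs passed (4.58 ± 0.70 SE, edgeR adjusted p = 0.00279). Bmp6 was lower in both, at −1.89 in CAFs and −1.81 in iDFs (edgeR adjusted p = 0.00891 in iDFs, where DESeq2 gave 0.121). Both genes were near the floor in starved iDFs, which limits these values. Gdf6 averaged 0.40 TPM in WT and 0.05 TPM in dKO iDFs, and Bmp6 0.38 and 0.10 TPM. In iDFs serum raised 3 of 9 tested target genes in each genotype and lowered none. Of all 15047 tested genes, 232 were called higher with serum in WT and 322 in dKO iDFs. In bulk tumours 0 of 54 tested pathway genes were called, and 5 had an unadjusted p under 0.05, as had 7.52% of all tested genes.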

How the data were processed

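Each library was a poly-A RNA library read from 1 end. The authors quantified reads with Salmon 1.2.1 against Gencode transcripts of GRCm38.p6 and deposited, per transcript, an estimated count, an effective length and a TPM value. Of 140992 transcripts, 99.15% were matched to genes with Gencode mouse release 21. Estimated counts, as deposited, were summed per gene and rounded, and deposited TPM values were summed per gene to compare levels between genes. Of the counts, 0.246 to 0.521% per library lay on transcripts without a gene and were left out.

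Counts were tested with edgeR 4.0.16 in R 4.3.3 (TMM, filterByExpr with a minimum count of 10 and total of 15, robust quasi-likelihood fit) and Benjamini-Hochberg adjustment over all tested genes. CAFs were fitted with sex, bulk tumours with batch and sex, the 4 iDF groups in 1 fit, and CAFs with starved iDFs in 1 fit with sex within CAFs. Residual degrees of freedom were 5, 7, 4 and 7. CD8+ T cell libraries, made from few cells, were used for levels only. Alternatives were DESeq2 1.42.0, RLE factors, no low-count filter, an offset for effective length, no fold threshold, other covariates, a replicate block and each library left out. The comparison by sex in CAFs was added after its values had been seen. The members, gene lists and tests were chosen with earlier results of these data known. All 10 members were named, and of the 67 pathway genes those called in a dKO against WT comparison, at most 10 per comparison by p. Some items that this rule or the labels would name are not reported here. Tested on simulated data, the CAF procedure recovered 76% of changes of 1 and 97% of changes of 2 on the log2 scale, and the bulk procedure 43% and 80%. The comparison of iDFs at 0 min recovered 81% and 92%, and that of CAFs with starved iDFs 51% and 73%. Calls among genes left unchanged numbered 0 in CAFs, 0 in iDFs, 5 in bulk tumours and 2 in CAFs with starved iDFs. Each gene was simulated with the spread typical of its level and no sex effect. These shares therefore do not describe members with a wider spread, such as Bmp7 and Inhba in CAFs, or with a sex effect. No pair of libraries agreed within sampling noise (58 pairs within groups, lowest chi-square per degree of freedom 3.97). Precision follows depth, which was 20164075 to 29135123 counts in CAFs, 22560402 to 30960463 in iDFs and 22245177 to 85432438 in bulk tumours. Promoter windows came from RefSeq for GRCm38.p6, and figures were drawn with Python 3.11.15.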

Additional observations from a re-analysis of the deposited data

Results flagged for a closer look

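In 6 of 60 gene-by-group sets of 4 or 6 libraries, 1 library lay apart from the rest by Dixon's criterion. Its rate of about 1 in 20 holds for normally distributed values. It is no measure here, since some sets were at 0 in all libraries or in all but 1. Bmp4 measured 11.5 CPM in WT CAF replicate 3 against 5.98 to 6.22 in the other 3. Without that library the log2 fold change of Bmp4 in CAFs was −0.47 (edgeR adjusted p = 0.113) in place of −0.75. Bmp7 measured 56.3 CPM in dKO tumour replicate 2 against 22.1 to 32.9 in the other 5, and Gdf10 119 CPM in dKO tumour replicate 6 against 20.6 to 42.1. In the CD8+ T cell libraries, WT replicate 1 held 13.8 CPM of Bmp4 (at most 0.44 in the other 3) and 5.43 CPM of Gdf10 (0 in the other 3). That library also had a summed melanocyte marker level of 187 TPM, against 4.38 to 10.5 TPM in the other 7, and the part of other cells in its values was not tested. Grem1 in dKO CD8+ replicate 3 stood apart at 0.0553 CPM, which is 1 count, with 0 in the others.

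The dKO effect differed between CAFs and starved iDFs, by an edgeR test of the difference, for Bmp4 (−7.46 on the log2 scale, CAFs minus iDFs), Grem1 (−4.99), Inhbb (−3.67) and Chrd (0.97). In iDFs that effect cannot be told apart from a difference between cell lines.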

How the results depend on the processing

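In CAFs 4 genes were called, and 2 (Grem1 and Nog) without the low-count filter and 2 (the same genes) without the sex term, which also took the calls over all genes from 865 to 386. With each library left out the number was 4 to 5, and Grem1, Nog, Bmp2 and Inhbb each passed in 8 of 8. In iDFs Bmp4, Inhbb and Grem1 passed in 4 of 4 at each time, and 4 to 4 genes were called at 0 min and 3 to 4 at 30 min. These were not the same 4 at 0 min, since in the 3 fits that lost Chrd (without WT replicate 1 or 2 or dKO replicate 1) Gdf10 entered the test and was called. Without the low-count filter Gdf10 was called beside the 4 at both times, which made 5. In all of these fits Gdf10 entered only through its counts in dKO libraries, as every WT library was at 0. Its calls therefore add no support beyond those counts. In CAFs minus iDFs 3 to 6 genes were called with libraries left out, among them Bmp4, Inhbb and Grem1 in 12 of 12. Without a fold threshold the calls over all genes were 1503 in CAFs, 4729 and 4781 in iDFs at 0 and 30 min, 745 and 1452 for serum in WT and dKO iDFs and 1976 for CAFs minus iDFs, and the 4 members called in CAFs, in iDFs and in CAFs minus iDFs were unchanged. In bulk tumours 8 genes were called over all, 191 with DESeq2, 25 without the low-count filter and 21 without the sex term, and no member in any of these. The interaction of genotype and serum called 2 genes, 7 with DESeq2, 7 without the filter and 6 under the block, again no member. For serum in WT iDFs no gene was called, and 1 was without a fold threshold (Inhba), with DESeq2 (Fst) and with only the groups compared (Fst). For serum in dKO iDFs no gene was called, and 1 was without a fold threshold (Inhba), with DESeq2, with the length offset and with the replicate block (Fst in each). Leaving out libraries there gave 0 to 1. Replicate numbers did not pair the iDF libraries (correlations of deviations 0.02 to 0.13), so the replicate block, under which 588 genes in all were called for serum in dKO iDFs, rests on a shared number. Under it the 4 genes called at 0 min were the same, and at 30 min Fst joined them. Fst at 30 min also passed under the block (1.26, edgeR adjusted p = 0.0168), with DESeq2 (0.00211), with the length offset (0.0419) and without dKO 30 min replicate 1 (1.81, 0.00268). The sign of uncalled values turned for Bmp2 in bulk tumours (0.06 without the sex term, 0.06 without the batch term, −0.42 to 0.10 with libraries left out). With libraries left out it also turned for Bmp2 in CAFs minus iDFs (−0.55 to 0.11), Bmp7 in bulk tumours (−0.34 to 0.05), Chrd in CAFs (−0.01 to 0.03), Gdf10 in CAFs (−0.04 to 0.30), Inhba in iDFs at 30 min (−0.06 to 0.20) and Inhbb in bulk tumours (−0.66 to 0.03). The causes were not tested. Depth limits Bmp4 in WT iDFs, Nog, Bmp7 and Gdf10 in iDFs most, which had few or no counts.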

Other observations

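Among sorted CD8+ T cells, Inhbb and Chrd had 0 counts in all 8 libraries. Bmp7 was detected in all 8, with 18 to 117 counts per library. Inhba, which encodes the activin A subunit, had 308 and 848 counts in WT replicates 1 and 4, 0 and 20 in the other WT libraries, and 1 to 11 in the 4 dKO libraries. Gdf10 had 172 and 73 counts in dKO replicates 3 and 4, both female, and 0 in the other dKO libraries. The summed fibroblast marker list ran from 515 to 1391 TPM over these 8 libraries. Most of that sum, on average, was Thy1, at 630.8 TPM in WT (lowest library 514.9) and 564.7 TPM in dKO (lowest library 495.5). The next highest gene of the list averaged 56.96 TPM in WT (Col3a1) and 144.4 TPM in dKO (Dcn). The sum is therefore no measure of fibroblasts in these libraries, and the part of fibroblasts in the values was not tested. No comparison was made on these low-input libraries.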
